A study of Drosophila melanogaster with 4 samples.

Results

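Muscle sarcomere and contraction genes were examined in Drosophila melanogaster, in whole larvae at the wandering stage of the third instar. The set was 34 named genes, taken by gene symbol and grouped by role as thick filament, thin filament, troponin C, Z-disc, calcium handling and the muscle transcription factor Mef2. Of these, 30 were listed among the 12116 genes of the expression table, with 154 of its 21529 transcripts. Larvae of the stock hsromega66, homozygous for a mutation of the long noncoding RNA gene Hsromega, were set against the wild-type stock Oregon R+, called control here. The sources used here do not say whether the stocks share a genetic background, so the mutation and other differences between the stocks cannot be told apart. For each genotype, 2 libraries of total RNA were made, each from 5 pooled whole larvae. The authors' values give 1 FPKM, fragments scaled to transcript length and library size, for each transcript and genotype, with the libraries pooled. No spread between libraries can therefore be given, and depth is unknown because the table holds no counts. Hsromega itself was listed at 0.290 FPKM in hsromega66 larvae and 232 FPKM in control larvae.

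Muscle contracts when myosin of the thick filament pulls on actin of the thin filament. Tropomyosin and the troponin complex block this at rest and release it when troponin C binds calcium, which the ryanodine receptor lets out of the sarcoplasmic reticulum and the SERCA pump returns. Thin filaments are anchored at the Z-disc by alpha-actinin and its partners, and the transcription factor Mef2 drives many of the genes for these proteins. The body wall muscles of the larva carry out crawling and are distinct from the flight muscles of the adult.

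Most filament and troponin C genes had lower values in hsromega66 than in control larvae: 6 of 8 listed thick filament genes, 7 of 7 thin filament genes and 3 of 4 troponin C genes. Unc-89, Strn-Mlck and TpnC47D were higher, and Act87E lay close to equality. Genes of the Z-disc lay on both sides of equality. No member had a transcript with a deposited q of at most 0.05, in either direction. The 30 genes made up 1.26% of all summed FPKM in hsromega66 larvae and 1.60% in control larvae. FPKM values below are the authors', added up over all transcripts listed for a gene. A log2 ratio is that of hsromega66 over control after adding 1 to each FPKM, a scale that understates changes of low genes. In bulk RNA of whole larvae, fewer muscle cells and less RNA per muscle cell cannot be told apart.

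**Figure D1:**
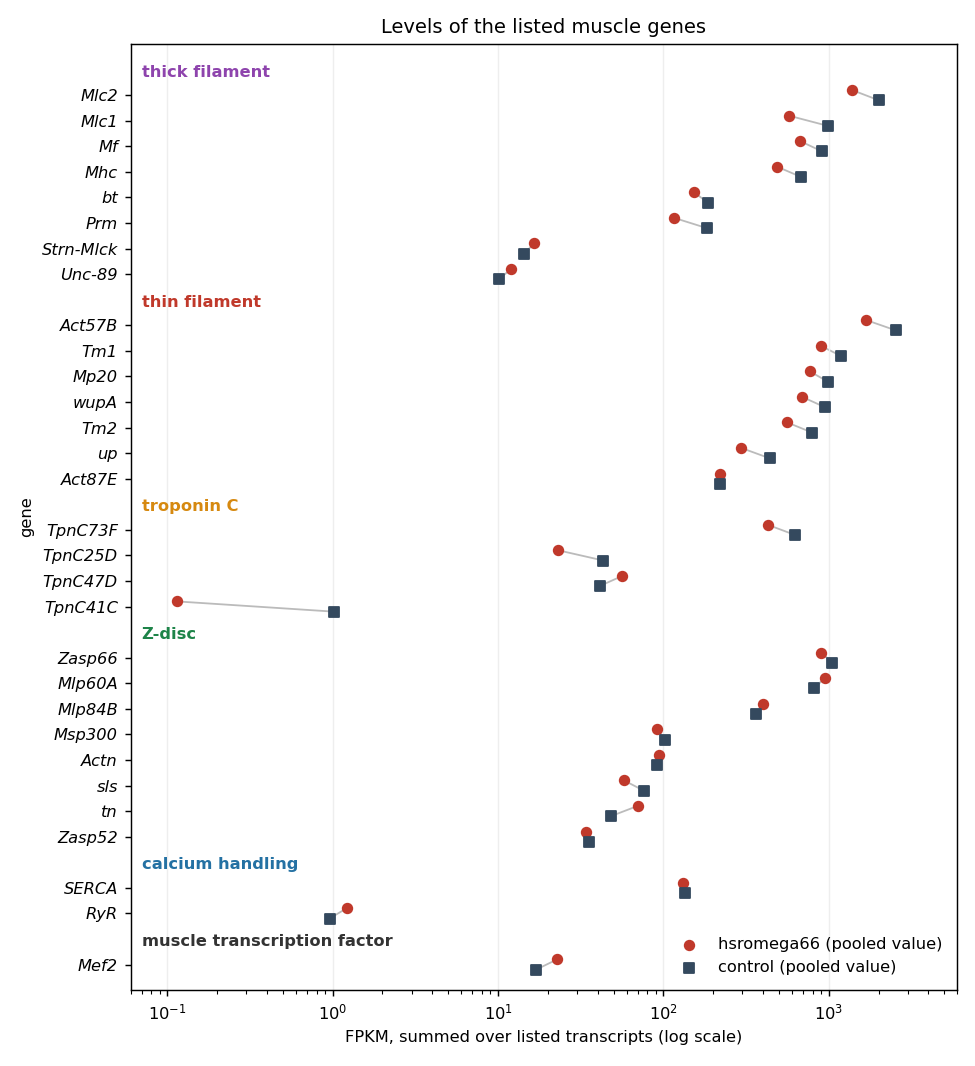
FPKM (log scale) of the 30 listed muscle genes in hsromega66 (circles, upper of each pair) and control larvae (squares, lower), 1 pooled value per genotype, ordered by role and by level in control. Most thick and thin filament genes lie to the left in hsromega66, while Mlp60A (943 against 816 FPKM) and tn (69.8 against 48.1 FPKM) lie to the right.

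Among thick filament genes, Mlc1 had the lowest log2 ratio. Mlc1, the alkali light chain (FBgn0002772, 3R, 27657078 to 27660177, minus strand, dm6), was listed at 571 FPKM in hsromega66 larvae and 984 FPKM in control larvae, a log2 ratio of -0.78. Mlc2, the regulatory light chain, stood at 1382 FPKM in hsromega66 and 2003 FPKM in control larvae. Mhc, the only gene for muscle myosin heavy chain in the fly (FBgn0264695, 2L, 16766566 to 16788766, plus strand, dm6), stood at 488 FPKM in hsromega66 and 679.9 FPKM in control larvae. The rods of the filament core gave a similar picture. Paramyosin (Prm; FBgn0003149, 3L, 8732858 to 8745310, minus strand, dm6) was listed at 116 FPKM in hsromega66 and 183 FPKM in control larvae, a log2 ratio of -0.65. Myofilin (Mf), a filament core protein, stood at 672 FPKM in hsromega66 and 911 FPKM in control larvae. The giant proteins of the A-band and M-line did not share this direction throughout. Projectin (bt), an elastic protein with a kinase domain, stood at 153 FPKM in hsromega66 and 185 FPKM in control larvae, whereas obscurin (Unc-89), a protein of the M-line, stood at 12.0 FPKM in hsromega66 and 10.1 FPKM in control larvae. Stretchin (Strn-Mlck), a relative of titin and myosin light chain kinases, stood at 16.6 FPKM in hsromega66 and 14.3 FPKM in control larvae. The 8 listed thick filament genes had a median log2 ratio of -0.46, with 6 below 0 and 2 above.

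Relative to Mhc, Mlc2 stood at 2.83 in hsromega66 and 2.95 in control larvae as a ratio of FPKM values, and Mlc1 at 1.17 in hsromega66 and 1.45 in control larvae. Mlc2 and Mhc therefore differed between the genotypes by much the same factor, and Mlc1 by a larger one.

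Thin filament genes all lay at or below equality, with a median log2 ratio of -0.45 over 7 listed genes and none above 0. Act57B, the main muscle actin of larvae, was the most abundant member, at 1689 FPKM in hsromega66 and 2543 FPKM in control larvae. By level it ranked 105 among all genes in hsromega66 and 52 in control larvae. Act87E, the other larval muscle actin listed, stood at 219 FPKM in hsromega66 and 220.3 FPKM in control larvae, so the ratio of Act57B to Act87E was 7.70 in hsromega66 and 11.5 in control larvae. Centred on the median of all genes, the log2 ratio of Act87E lay above 0. Actin genes are near-identical in their coding parts, so the division of reads among them is uncertain. The regulatory proteins kept close to one another. Troponin T (up) was listed at 296 FPKM in hsromega66 and 438 FPKM in control larvae. Troponin I (wupA) stood at 689.6 FPKM in hsromega66 and 945 FPKM in control larvae. The tropomyosins showed log2 ratios of -0.41 for Tm1, at 892 FPKM in hsromega66 and 1185 FPKM in control larvae, and -0.50 for Tm2, at 561 FPKM in hsromega66 and 795 FPKM in control larvae. Tm1 and Tm2 lie side by side on 3R. Mp20, a calponin-like actin-binding protein of muscle, stood at 767 FPKM in hsromega66 and 983 FPKM in control larvae.

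Troponin C is encoded by a family of genes used in different muscles. TpnC73F (FBgn0010424, 3L), the main one here, stood at 426 FPKM in hsromega66 and 625 FPKM in control larvae. TpnC25D (FBgn0031692, 2L) stood at 23.1 FPKM in hsromega66 and 43.3 FPKM in control larvae. Its log2 ratio of -0.88 was the lowest of the 30 genes. Its only listed transcript had an unadjusted Cuffdiff p of 0.503 in the authors' deposited table. TpnC25D overlaps tkv, a gene of the opposite strand listed at 18.8 FPKM in hsromega66 and 22.3 FPKM in control larvae. The sources used here do not say whether counting used strand. TpnC41C stood at 0.115 FPKM in hsromega66 and 1.02 FPKM in control larvae, near the level below which no transcript was listed, 0.669 FPKM in at least 1 genotype. Its log2 ratio ran from -2.38 with a pseudocount of 0.1 to -0.24 with a pseudocount of 5. TpnC47D went the other way, at 56.6 FPKM in hsromega66 and 41.1 FPKM in control larvae. Of the summed troponin C FPKM, TpnC73F held 84.2% in hsromega66 and 88.0% in control larvae, and TpnC47D held 11.2% in hsromega66 and 5.79% in control larvae. The median log2 ratio of the 4 listed genes was -0.70, and -0.39 with a pseudocount of 5.

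Z-disc genes did not share one direction: 4 of 8 lay below 0 and 4 above, with a median log2 ratio of -0.0056. Sallimus (sls), the titin-like spring between Z-disc and thick filament, had the lowest log2 ratio of the group, -0.39, at 57.8 FPKM in hsromega66 and 76.1 FPKM in control larvae. All 8 listed transcripts of sls were lower in hsromega66. With the most abundant transcript in place of the sum, the log2 ratio of sls was -0.0093, and Msp300 was then the lowest of the group at -0.34. The PDZ proteins that bind alpha-actinin differed less. Zasp66 stood at 899.9 FPKM in hsromega66 and 1048 FPKM in control larvae. Zasp52 stood at 34.3 FPKM in hsromega66 and 35.5 FPKM in control larvae. Msp300, a nesprin that ties nuclei and Z-discs to the cytoskeleton, stood at 91.4 FPKM in hsromega66 and 102 FPKM in control larvae. The muscle LIM proteins lay on the other side of 0. Mlp60A was listed at 943 FPKM in hsromega66 and 816 FPKM in control larvae, and Mlp84B at 398 FPKM in hsromega66 and 365 FPKM in control larvae. Both transcripts of Mlp60A and all 3 of Mlp84B were higher in hsromega66. The gene tn (thin), a TRIM protein needed to maintain larval muscle, had the highest log2 ratio of the 30 genes, 0.53, at 69.8 FPKM in hsromega66 and 48.1 FPKM in control larvae. Alpha-actinin (Actn) stood at 93.7 FPKM in hsromega66 and 91.2 FPKM in control larvae as a whole gene.

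SERCA, the calcium pump of the sarcoplasmic reticulum, stood at 132 FPKM in hsromega66 and 135 FPKM in control larvae as a whole gene, and its most abundant transcript alone had a log2 ratio of -0.41. RyR, the calcium release channel, was low in whole larvae, at 1.22 FPKM in hsromega66 and 0.959 FPKM in control larvae. Mef2 stood at 22.8 FPKM in hsromega66 and 17.0 FPKM in control larvae, a log2 ratio of 0.40, with 5 of its 6 transcripts higher in hsromega66.

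**Figure D2:**
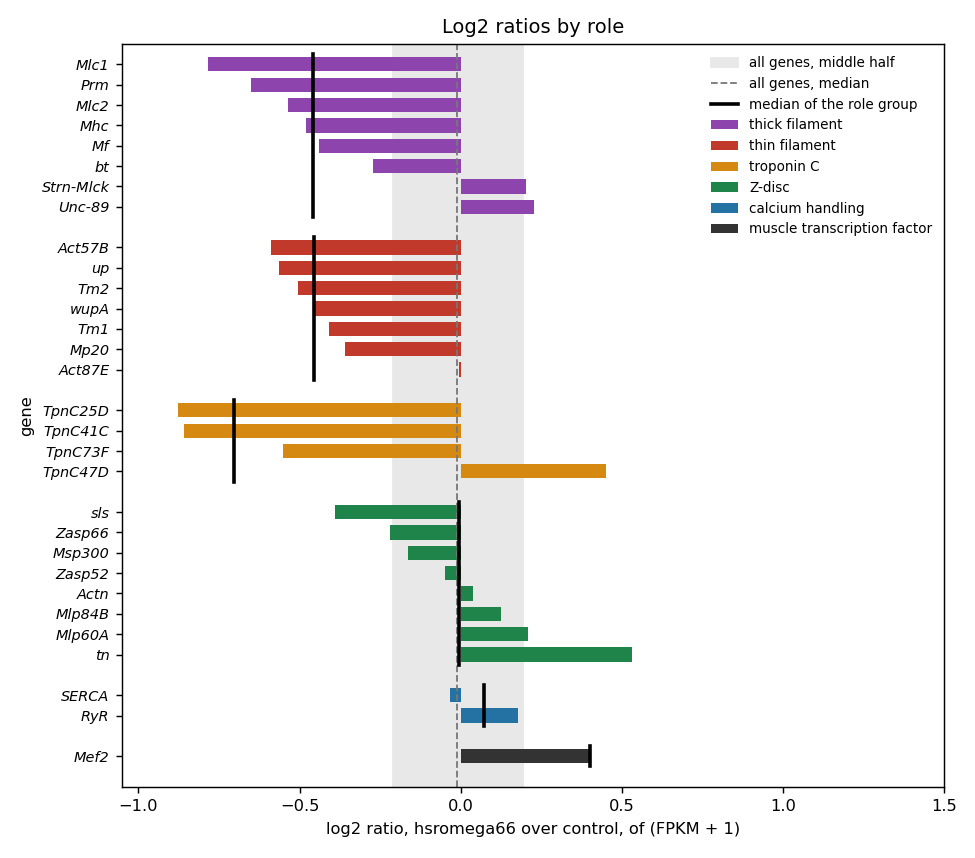
Log2 ratio of (FPKM + 1), hsromega66 over control, for each listed muscle gene by role (bars), with the median of each role group (black lines), the middle 50% of all genes (grey band) and their median (dashed line). Troponin C has the lowest group median, -0.70, and the Z-disc genes are spread around 0.

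The remaining 4 named genes, fln (flightin), Act79B, Act88F and TpnC4, had no row in the values analysed here. In adult flies these are genes of the flight muscles (fln, Act88F, TpnC4) or of other adult muscles (Act79B). Whether they lay below the level needed for listing is not known. Of the actin and troponin C genes of the set, Act57B, Act87E, TpnC25D, TpnC41C, TpnC47D and TpnC73F were listed, at the levels given above.

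The authors' tests were read against the whole table. Here a gene was called where at least 1 transcript had a q value of at most 0.05 in the authors' deposited table. By this rule 0 of the 30 genes were called, against 0.908% of all genes called lower and 1.4% called higher. Mlc1 had the lowest q of the members in the authors' deposited table, 0.702, with an unadjusted p of 0.02315. By the authors' deposited table it was the 1 gene of 30 lower at an unadjusted p up to 0.05, a share of 3.33%, beside 3.2% of all genes. No member was higher at such a p, beside 4.67% of all genes. Next came Prm and TpnC73F, whose lowest p in the authors' deposited table was 0.05375 and 0.07265. By transcripts, 1 of 154 had such a p, 0.649%, beside 4.5% of all 21529 transcripts. Counts by deposited p were thus near or below those over the table. That p is given per transcript, and members had a median of 5 listed transcripts, beside 1 over all genes. Shares of genes by this rule are therefore not like for like.

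By size and direction, 21 of the 30 genes lay below 0, 70.0%, beside 51.8% of all genes. The median log2 ratio was -0.31, beside -0.013 over all genes. A ratio of at least 1.5-fold, on the log2(FPKM + 1) scale, was reached downward by 5 genes, TpnC25D, TpnC41C, Mlc1, Prm and Act57B, 16.7% of the members beside 6.73% of all genes, and upward by 0 genes, beside 7.64% of all genes. Act57B lay just past that ratio, at -0.590 on the log2 scale, and up just short of it, at -0.563. Members were then divided by level. Of the 18 members with a mean FPKM of at least 100, a level chosen after the values were seen, 16 lay below 0, with a median of -0.45. Of all 886 genes at that level, 52.6% lay below 0, with a median of -0.023. The 2 exceptions were Mlp60A and Mlp84B. Of the 12 members under that level, 5 lay below 0 (TpnC25D, TpnC41C, sls, Msp300 and Zasp52), and the median of the 12 was 0.11. Of all 11230 genes under that level, 51.8% lay below 0, with a median of -0.012. At 1.5-fold, 3 of the 18 abundant members lay lower, 16.7%, beside 13.5% of the 886 genes, so that count was near its background, while 0 lay higher, beside 13.4%.

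**Figure D3:**
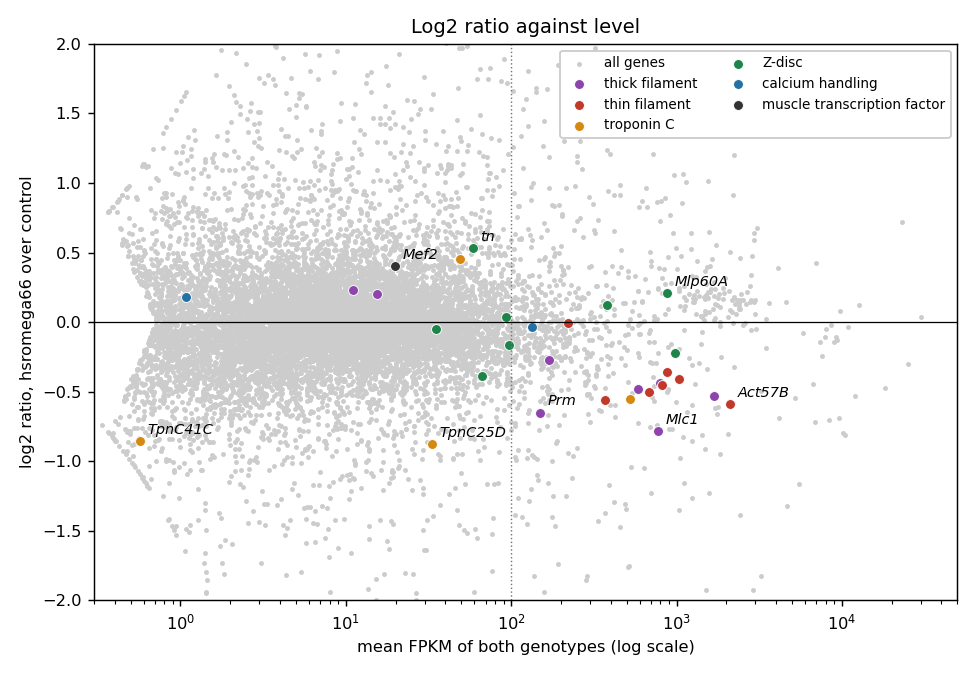
Log2 ratio of (FPKM + 1), hsromega66 over control, against the mean FPKM of both genotypes (log scale) for all genes above 0.3 FPKM (grey) and the listed muscle genes (coloured by role); genes beyond a log2 ratio of 2 in either direction are outside the axis. To the right of 100 FPKM (dotted line), a level chosen after the values were seen, 16 of 18 muscle genes lie below 0.

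Muscle genes make many transcripts by alternative splicing, and the listed members had a median of 5 transcripts each, beside 1 over all genes. The authors' assembly marked 97 of the 154 transcripts, 63.0%, as sharing splice junctions with an annotated transcript without matching one in full. Over all transcripts this share was 10.6%. Among genes with at least 5 transcripts, 11 of 16 members and 29.7% of 613 genes held at least 1 such transcript. For Mhc all 11 listed transcripts, and for Mf all 9, were of this kind. Estimates for such transcripts rest on how the reads of shared exons were divided.

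Direction was also counted over transcripts. Of the 20 member transcripts with a mean of at least 100 FPKM, 18 were lower in hsromega66, and the other 2 belonged to Mlp60A and Mlp84B. These transcripts belong to the abundant members already counted above, so this is a recount and not separate support. The level was again the one chosen after the values were seen. Over the table, 50.8% of the 851 transcripts at that level were lower. Of the 134 member transcripts under that level, 69 were lower, and the share over all such transcripts was not computed. For Mhc, the most abundant transcript, nearest to Mhc-RD, stood at 174 FPKM in hsromega66 and 231 FPKM in control larvae, and the next, nearest to Mhc-RC, at 132 FPKM in hsromega66 and 205 FPKM in control larvae. The transcript of wupA that matches wupA-RA held 93.1% of the gene in hsromega66 and 94.6% in control larvae. Tm1 was nearly all 1 transcript, nearest to Tm1-RM, at 89.7% in hsromega66 and 91.4% in control larvae.

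Shares of transcripts within a gene were then compared. For each of the 25 members with at least 2 listed transcripts, the part of the gene's FPKM that sat on other transcripts in hsromega66 than in control was computed as the summed absolute difference of shares divided by 2. The median was 6.66%, beside 6.72% over 4089 genes with at least 2 transcripts and at least 5 FPKM, and 21 of the 25 kept the same most abundant transcript. The 4 with another were Actn, Msp300, sls and Zasp52. Actn had the highest value, 61.6%, where 10% of the 4089 genes exceeded 21.7%. None of its 10 listed transcripts matched an annotated one in full, so its shares rest on how reads of shared exons were divided. Msp300 followed at 18.4% and Strn-Mlck at 15.7%.

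The Actn gene (FBgn0000667, X, minus strand, dm6) holds transcripts with different first exons and different internal coding exons. The transcript nearest to Actn-RH stood at 55.0 FPKM in hsromega66 and 0.103 FPKM in control larvae, and the transcript nearest to Actn-RG at 7.53 FPKM in hsromega66 and 46.5 FPKM in control larvae. In the authors' deposited table their p-values were 0.205 and 0.255, and neither had a q of at most 0.05. In the Ensembl annotation both encode the same protein of 917 amino acids. They start from different noncoding first exons, X:2036581-2036619 for Actn-RH and X:2036407-2036466 for Actn-RG. With transcripts merged by the coding sequence of their nearest annotated transcript, the part of Actn that differed between genotypes was 15.9%, below that of Msp300 at 16.9% and close to that of Strn-Mlck at 14.7%. Transcripts nearest to forms of 917 amino acids then summed to 65.8 FPKM in hsromega66 and 49.5 FPKM in control larvae, and those nearest to forms of 895 amino acids to 23.9 FPKM in hsromega66 and 34.5 FPKM in control larvae. Merging in the same way brought SERCA to 0.0270%, down from 11.6%, and Prm to 0.820%, down from 7.56%, while Unc-89 stayed at 11.4% and Mhc was at 8.35%, beside 8.44%.

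**Figure D4:**
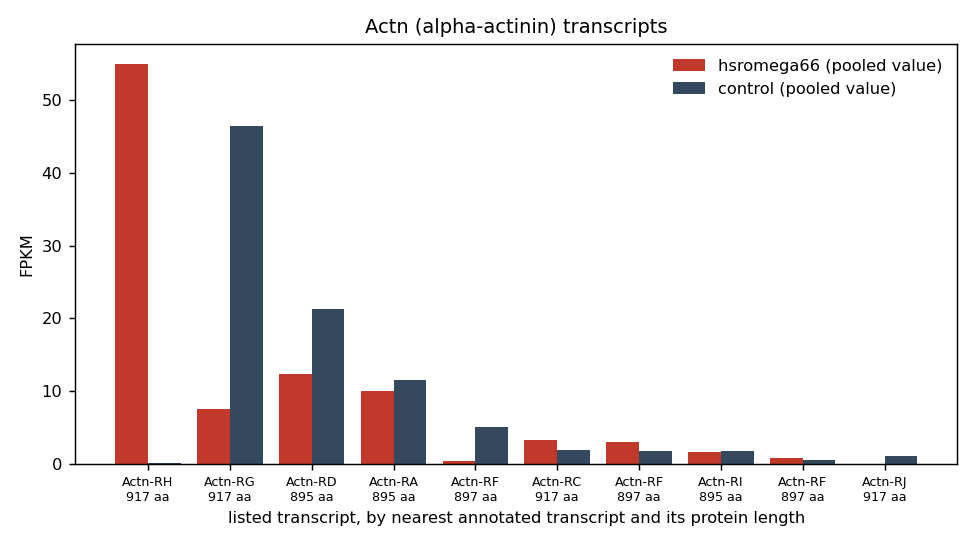
FPKM of the 10 listed Actn transcripts in hsromega66 (left bar) and control larvae (right bar), 1 pooled value each, labelled by nearest annotated transcript and the length of its protein. Most of the gene sits on the transcript nearest to Actn-RH in hsromega66 (55.0 FPKM) and on the transcript nearest to Actn-RG in control larvae (46.5 FPKM).

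Genes that work with the sarcomere but are not part of the set had a median log2 ratio nearer to that of all genes. Their summed FPKM was 6317 in hsromega66 and 8029 in control larvae, a fold of 0.787. That fold was 0.758 for the 30 members and 0.959 for all genes. Abundant genes such as Argk and Act5C weigh most in this sum. By list, the fold was 0.728 for energy supply, 0.783 for assembly and 0.807 for cytoplasmic actins. It was 0.939 for attachment, 0.967 for glutamate receptors, 0.973 for excitation and 1.06 for myogenesis. The 58 listed genes were those for attachment, excitation, glutamate receptors, assembly, myogenesis and energy supply, and the 2 cytoplasmic actins. Of the 58, 38 lay below 0, 65.5% beside 51.8% of all genes, with a median log2 ratio of -0.082, and none passed the deposited q. By an unadjusted deposited p of at most 0.05, 0 were lower, beside 3.2% of all genes, and 3 were higher, 5.17% beside 4.67% of all genes, a share near the background. Among 14 genes of integrin attachment and the costamere, 11 lay below 0 with a median of -0.10. The most extreme was Tig (tiggrin, a ligand of integrins at muscle attachment sites), at 88.1 FPKM in hsromega66 and 66.0 FPKM in control larvae. Arginine kinase (Argk), which buffers ATP in insect muscle, came close to the filament genes, at 1756 FPKM in hsromega66 and 2634 FPKM in control larvae. The chaperone l(2)efl, a small heat shock protein of the alpha-crystallin family, stood at 583 FPKM in hsromega66 and 849 FPKM in control larvae and was the most extreme of 12 genes of assembly and actin dynamics, whose median was 0.023. Gpdh1, glycerol-3-phosphate dehydrogenase, stood at 61.0 FPKM in hsromega66 and 33.7 FPKM in control larvae, with an unadjusted p of 0.03725 in the authors' deposited table. Him, which restrains muscle differentiation in adult muscle precursors, had the largest ratio among 10 regulators and fusion genes, at 3.90 FPKM in hsromega66 and 0.671 FPKM in control larvae, with a q of 0.149 in the authors' deposited table. The glutamate receptor gene GluRIIC of the neuromuscular junction stood at 2.27 FPKM in hsromega66 and 1.20 FPKM in control larvae. The calcium-activated potassium channel gene slo stood at 4.92 FPKM in hsromega66 and 2.30 FPKM in control larvae. The cytoplasmic actins lay lower too, Act5C at 1707 FPKM in hsromega66 and 2031 FPKM in control larvae, and Act42A at 445 FPKM in hsromega66 and 635 FPKM in control larvae.

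Markers of other tissues in the same larvae lay in several directions, and their part in the muscle result was not tested. The 10 haemocyte genes had a median log2 ratio of -0.68, with 8 below 0, and summed to 266 FPKM in hsromega66 and 421 FPKM in control larvae. The extreme was PPO3, a prophenoloxidase, at 1.23 FPKM in hsromega66 and 14.4 FPKM in control larvae. Its only listed transcript had an unadjusted Cuffdiff p of 0.250 in the authors' deposited table. By such a p of at most 0.05, 4 of the 10 haemocyte genes were lower, 40% beside 3.2% of all genes. By the same p, 0 were higher, beside 4.67% of all genes, and 0 passed the deposited q. The 9 salivary gland genes had a median of -0.72, with 6 below 0 and 3 above. The deposited q called 1, Sgs1, at 3.67 FPKM in hsromega66 and 10.7 FPKM in control larvae. Their sum differed less, at 43624 FPKM in hsromega66 and 47810 FPKM in control larvae. Sgs7, the most abundant, stood at 30486.5 FPKM in hsromega66 and 29798 FPKM in control larvae. The highest log2 ratio of the list was that of ng1, 1.22. The 9 digestive genes of the gut had a median of 0.85, with 7 above 0. The deposited q called 4 higher, Amy-p, alphaTry, Mal-A1 and mag, and 1 lower, Jon99Cii, with Amy-p the most extreme at 87.6 FPKM in hsromega66 and 21.3 FPKM in control larvae. The 6 fat body genes had a median of -0.11, the 7 imaginal disc genes 0.073, the 7 genes of neurons and glia 0.13, the 4 tracheal genes 0.44, and the 7 genes of epidermis and cuticle -0.078. In the last list Cpr65Av was called lower by the deposited q, at 1.98 FPKM in hsromega66 and 21.5 FPKM in control larvae. The most extreme gene of the fat body list was apolpp (1101 FPKM in hsromega66, 1365 FPKM in control larvae) and of the disc list ap (10.8 FPKM in hsromega66, 14.3 FPKM in control larvae). That of the neuron and glia list was Syt1 (35.8 FPKM in hsromega66, 22.8 FPKM in control larvae) and of the tracheal list verm (36.4 FPKM in hsromega66, 23.9 FPKM in control larvae). No listed marker was at 0 in either genotype.

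**Figure D5:**
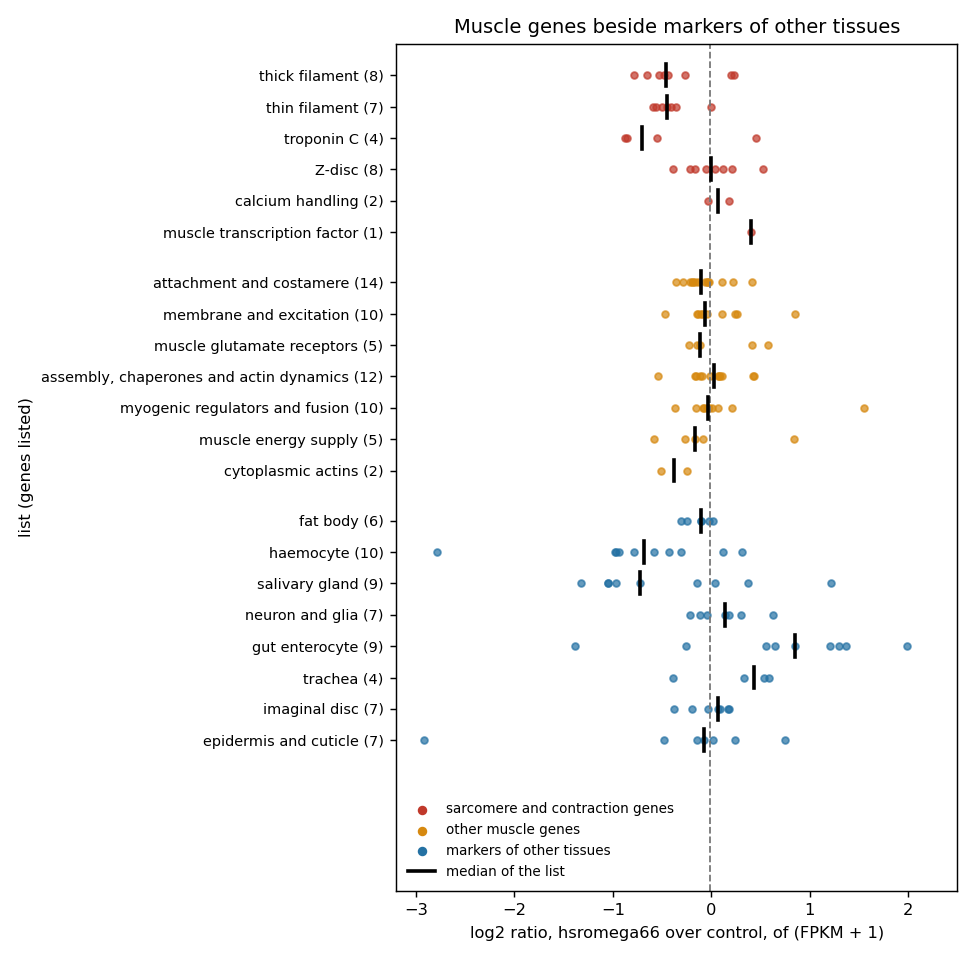
Log2 ratio of (FPKM + 1), hsromega66 over control, for each gene (points) of the 6 role groups, of 7 lists of other muscle genes and of 8 lists of markers of other tissues, with list medians (black bars) and the median of all genes (dashed line). Thick filament, thin filament and troponin C medians lie at -0.46, -0.45 and -0.70, the haemocyte and salivary gland medians at -0.68 and -0.72, and the gut median at 0.85.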

How the data were processed

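Total RNA of 5 larvae per library, after removal of rRNA with a stranded kit, gave read pairs of 100 bp, per the labels' protocols. The tools named in the submitters' processing notes are Cuffdiff 2.1.1, Cufflinks, TopHat and Bowtie, and the build is dm6. The authors deposited 1 pooled FPKM value per transcript and genotype, a log2 fold change, a p-value and a q-value. Values per library were not analysed here, so no error, leave-one-out value or test between libraries could be computed, and the fallback to pooled values was used. Whether libraries came from separate cultures is not given, and the deposited p-values may measure technical spread only.

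FPKM was summed per gene and ratios used a pseudocount of 1, with no filter. All 34 members are named. Of the other lists, genes called by the deposited q and the most extreme gene of a list are named, others being chosen after their values were seen. The members and lists were chosen with earlier results of these data known. Coordinates are from Ensembl 115 (BDGP6.54, dm6 coordinates): all 30 listed members matched by gene identifier, and 29 lay inside the locus given in the table. Sequences were not analysed here. The functions were tested on simulated data. Python 3.11.15, numpy 2.4.6, pandas 2.3.3 and matplotlib 3.10.9 were used.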

Additional observations from a re-analysis of the deposited data

How the results depend on the processing

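The median log2 ratio of the 30 genes ran from -0.35 to -0.25 over the 6 alternatives (pseudocounts of 0.1 and 5, FPKM of at least 1 or 5 in at least 1 genotype, centring on the median of all genes, and the most abundant transcript in place of the sum). Between 20 and 21 genes lay below 0, and between 4 and 7 were lower by at least 1.5-fold. With the most abundant transcript, 1 gene was higher by at least 1.5-fold, against 0: Actn, at 5.67 on the log2 scale, where that transcript stood at 55.0 FPKM in hsromega66 and 0.103 FPKM in control larvae. Thick and thin filament medians stayed between -0.48 and -0.44. The troponin C median was -0.39 with a pseudocount of 5. The Z-disc median was 0.0071 after centring and 0.13 with the most abundant transcript. The median of SERCA and RyR was 0.14 and 0.014 with pseudocounts of 0.1 and 5, -0.034 with FPKM of at least 5, which leaves SERCA alone, and -0.11 with the most abundant transcript. Single genes changed sign in 2 cases, Act87E after centring and Zasp52 with the most abundant transcript. With the most abundant transcript, the ratios of 8 of 30 genes moved by over 1.5 times, among them sls (-0.0093, against -0.39) and SERCA (-0.41, against -0.034). Each pseudocount moved TpnC41C and RyR by as much, genes at 1.22 FPKM or less in both genotypes. Centring took off the median of all genes, -0.013, and moved Act87E (-0.0052 before) and SERCA (-0.034 before) by as much. For the changes with the most abundant transcript, the cause was not tested. Members called were 0 at q of at most 0.1 and 1 at an unadjusted Cuffdiff p of at most 0.05. No paired analysis was possible because the values are pooled over the replicates of each genotype, and leaving out a replicate was not possible for the same reason. Depth is unknown, so how it limits the low genes RyR and TpnC41C cannot be given.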
